A study of Danio rerio with 8 samples.

Results

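The muscle receptor kinase gene musk and its partners of the neuromuscular junction were followed in zebrafish (Danio rerio) heart. The rule named 5 genes by the gene symbol of the array's platform annotation: musk, rapsn, chrna1, chrnd and chrng. A probe set carried that symbol for 3 of them, musk, rapsn and chrna1, with 1 probe set each, which makes 3 of the 15502 probe sets tested. The genes chrnd and chrng were not analysed here. The 5 names were chosen partly from earlier results of the same resected against control contrast, in which musk stood among the largest increases. The differences of the members are therefore given as a description, with no test. The groups were 4 arrays of resected ventricles and 4 arrays of control ventricles, each array a pool of 50 ventricles taken 2 weeks after the operation. The genotype, strain and age of the fish, and what was done to the control animals, were not stated in the labels. Each condition had 4 biological replicates, per the series design.

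At the neuromuscular junction, agrin released by the motor nerve binds the receptor Lrp4 on the muscle fibre, and Lrp4 activates the receptor tyrosine kinase MuSK. MuSK signals through the adaptor Dok7 to the scaffold protein rapsyn, which holds acetylcholine receptors in dense clusters under the nerve terminal. These receptors are built from the alpha subunit encoded by chrna1 with beta and delta subunits and, in mammals, a gamma subunit in the embryo or an epsilon subunit in the adult. In zebrafish embryos musk is also needed for the path of motor axons into the muscle. Heart muscle has no endplates: the vagus nerve acts on it through muscarinic receptors, which are a separate family. In rodents, loss of the nerve raises several of these genes together in skeletal muscle.

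Expression was read as RMA values in log2 units, a summary of an array's probes after background correction and quantile normalization. The medians of the arrays lay between 5.78 and 5.82. RMA gives no detection call, so whether a probe set read above background is unknown, and precision is limited by the number of arrays. The heart muscle markers stood high in both groups: the light chain gene myl7 averaged 13.99 in resected and 14.04 in control arrays, and the actin gene actc1a 14.43 in resected and 14.48 in control arrays. Each difference is resected minus control, in log2 units, and its standard error (SE) comes from a limma fit over all probe sets. Where a test is given, its threshold is a Benjamini-Hochberg adjusted p of 0.05 over all 15502 probe sets. The probe set of musk carries the Entrez gene identifier 334526 and no accession in the annotation, so its identity rests on that entry. Those of rapsn and chrna1 carry the Entrez identifiers 352942 and 30725. No coordinates are given, because the sources name no genome build for the array.

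The kinase gene musk was the member with a large difference. It read 7.35, 7.70, 7.33 and 7.72 in resected replicates 1 to 4, against 5.30, 5.68, 4.23 and 4.65 in control replicates 1 to 4. Every resected array lay above every control array, and the lowest resected value was 1.65 above the highest control value. The means were 7.52 ± 0.21 in resected and 4.96 ± 0.65 in control arrays (SD, n = 4 each), a difference of 2.56 ± 0.27 (SE) or 5.90-fold. Only 11 of the 15502 probe sets had a larger increase. In all resected arrays musk read above the array median, and in all control arrays below it.

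Control arrays were spread more widely in musk than resected arrays, a difference in spread that was not tested. Their values spanned 1.45, with control replicate 2 highest and control replicate 3 lowest, where the resected values spanned 0.39. The control SD of musk was above that of 98.7% of all probe sets, and its resected SD above that of 84.8%. With each array left out in turn the difference lay between 2.31 and 2.80, lowest without control replicate 3 and highest without control replicate 2.

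The scaffold gene rapsn, whose protein clusters the receptors, read 4.70, 4.79, 4.84 and 4.66 in resected arrays, against 4.95, 4.79, 4.90 and 5.18 in control arrays. The groups overlapped, with the control arrays on average above the resected arrays. The means were 4.75 ± 0.08 in resected and 4.96 ± 0.17 in control arrays (SD, n = 4 each), and the difference was -0.21 ± 0.10 (SE).

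The receptor subunit gene chrna1, which encodes the chain that binds acetylcholine, read 4.41, 4.69, 4.29 and 4.41 in resected arrays, against 4.26, 4.36, 4.15 and 4.13 in control arrays. Here the resected arrays were on average higher, and again the groups overlapped. The means were 4.45 ± 0.17 in resected and 4.23 ± 0.11 in control arrays (SD, n = 4 each), a difference of 0.22 ± 0.10 (SE). Both rapsn and chrna1 read below the array median in all 8 arrays.

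The limma threshold was passed by 6.85% of all probe sets, and its outcome is not given for the members. The groups did not overlap for 1 of the 3 members measured, musk, where 6.95% of all probe sets had every resected array above every control array. Nothing is read from this count, because musk was chosen by this contrast. Across the 8 arrays the Pearson correlation of musk was 0.79 with chrna1 and -0.74 with rapsn, and that of rapsn with chrna1 was -0.65. After the group means were taken out these became 0.65, -0.45 and -0.36. These correlations are descriptions over 8 arrays that share one normalization.

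**Figure D1:**
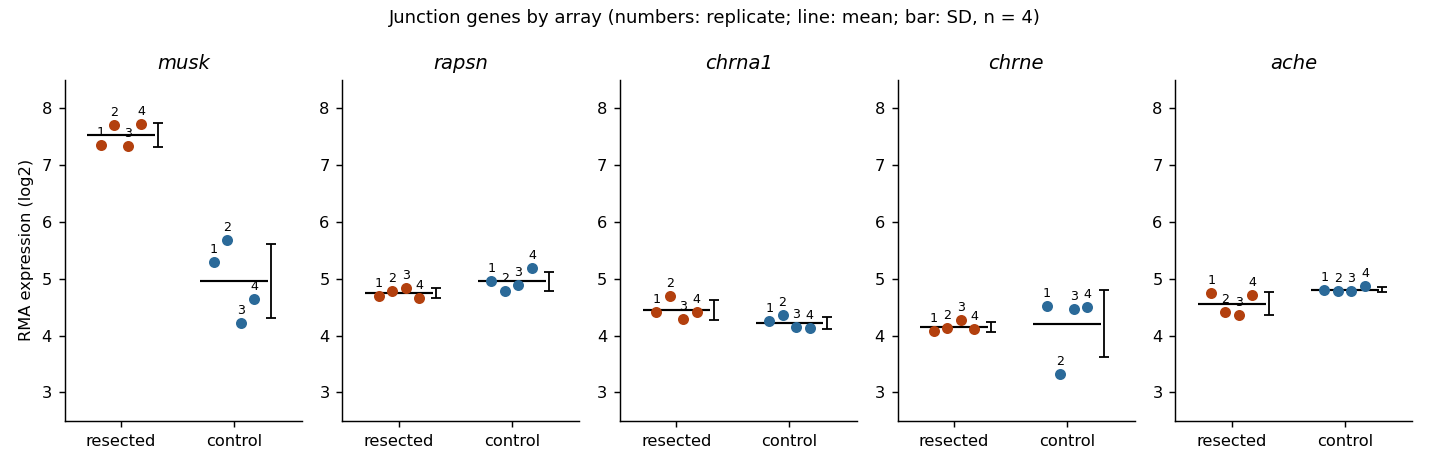
RMA expression (log2) of musk, rapsn, chrna1, chrne and ache in each of 4 resected and 4 control arrays; numbers are replicates, lines are means and bars are SDs (n = 4). The resected values of musk (7.33 to 7.72) lie above its control values (4.23 to 5.68), while the groups of rapsn and chrna1 overlap.

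None of the other muscle receptor and junction genes measured had a difference as large as that of musk. The receptor subunit chrne, the adult epsilon chain in mammals, read 4.08, 4.13, 4.28 and 4.12 in resected arrays, against 4.52, 3.33, 4.47 and 4.50 in control arrays. Control replicate 2 alone lay below the resected arrays, and the other control arrays lay above them. The difference was -0.05 ± 0.24 (SE; limma adjusted p = 0.916, 95% interval -0.58 to 0.47). Without control replicate 2 it was -0.35, with a limma adjusted p = 0.032, so that array set the side of the threshold.

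The acetylcholinesterase gene ache, whose enzyme clears the transmitter from the synaptic cleft, read 4.75, 4.42, 4.37 and 4.72 in resected arrays, against 4.80, 4.79, 4.78 and 4.87 in control arrays. All resected values lay below all control values, by a small margin. The difference of -0.25 ± 0.10 did not pass the threshold (limma adjusted p = 0.177, 95% interval -0.48 to -0.02). The Wnt ligand gene wnt11, whose product binds MuSK in zebrafish, averaged 6.01 ± 0.07 in resected and 5.94 ± 0.18 in control arrays (SD, n = 4 each; limma adjusted p = 0.667). The genes lrp4, agrn, dok7a, dok7b, colq and chrnb1 were not analysed here.

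A wider list held 76 genes of the muscle receptor, the endplate basement membrane, the dystrophin complex and the kinase's signalling partners, of which 35 were measured. In it 5 genes rose, 1 fell and 29 did not pass, where 5.05% of all 8793 genes rose and 3.0% fell. The list median was 0.08, beside -0.04 over all genes. The largest increase was in the laminin chain gene lamb1a, a part of basement membranes in many tissues. It read 8.38, 8.61, 8.46 and 8.52 in resected arrays, against 7.23, 6.76, 7.45 and 7.37 in control arrays. The resected arrays lay clear of the control arrays, and the difference was 1.29 ± 0.14 (limma adjusted p = 0.000524).

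The other increases were smaller. They were in dag1, the dystroglycan that anchors muscle membrane to laminin (0.41 ± 0.08), ywhag1, a 14-3-3 adaptor (0.46 ± 0.09), dnaja3a, a co-chaperone that binds MuSK in mouse (0.44 ± 0.10), and rac1a, a GTPase that shapes actin (0.51 ± 0.13). The related gene ywhag2 was at 1.27 ± 0.34, but its groups overlapped and it did not pass (limma adjusted p = 0.0533). It was named after its value was seen. The neuregulin receptor gene erbb2 fell, at 9.02 ± 0.11 in resected and 9.61 ± 0.18 in control arrays (SD, n = 4 each; -0.58 ± 0.10, limma adjusted p = 0.00823). The call for rac1a was lost without any single array except control replicate 2 (limma adjusted p between 0.0611 and 0.109) and after further quantile normalization (0.0638). The call for dnaja3a was lost when resected replicate 1, 2 or 3 or control replicate 3 or 4 was left out (0.0515 to 0.0741), and that for ywhag1 when resected replicate 2 or 3 was (0.0584 and 0.0571).

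Receptors for acetylcholine outside the endplate, and proteins that assemble them, formed a further list. Of 41 listed genes 8 were measured, and 0 rose and 0 fell in limma. Among all 8793 genes 5.05% rose and 3.0% fell, so nothing is read from this count. An unadjusted p under 0.05 was reached by 1 gene in the higher and by 0 in the lower direction. The cardiac muscarinic receptor gene chrm2a, through which the vagus nerve slows the heart, averaged 5.65 ± 0.18 in resected and 5.75 ± 0.26 in control arrays (SD, n = 4 each; limma adjusted p = 0.724, 95% interval of the difference -0.40 to 0.21). The neuronal nicotinic subunits chrna7a, chrnb3a and chrnb3b had differences of -0.03 ± 0.08, -0.05 ± 0.09 and -0.04 ± 0.13. The receptor chaperone ric3b was at -0.10 ± 0.09 and tmem35, whose mammalian product helps nicotinic receptors mature, at 0.18 ± 0.10. The subunit retention factor rer1 was at 0.26 ± 0.11, and unc50 at 0.06 ± 0.10.

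**Figure D2:**
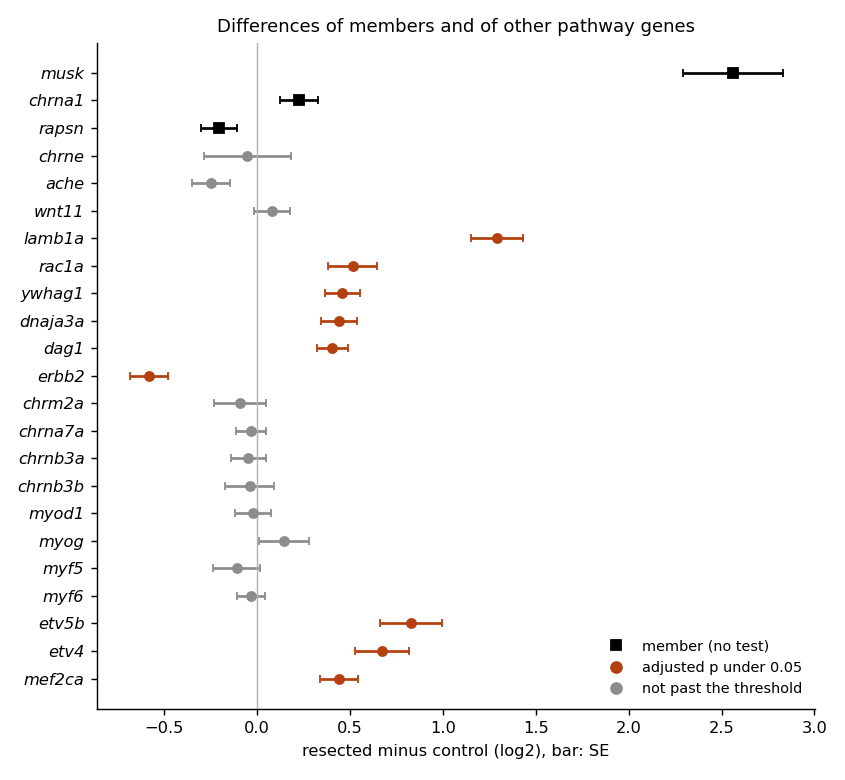
Difference between resected and control arrays (log2, bar: SE of the fit, n = 4 each) for the members and other pathway genes. Squares are members, shown with no test outcome, red circles passed an adjusted p of 0.05 and grey circles did not; musk stands at 2.56, and lamb1a, the next, at 1.29.

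Myogenic regulators and genes linked to nerve input in muscle were then compared, inhibitors of myogenic factors among them. Myogenic factors bind E-box motifs in the receptor gene promoters of mammals and chicks, and ETS factors act on these genes at the endplate in mouse. Of 57 listed genes 40 were measured: 3 rose, 0 fell and 37 did not pass. Over all genes 5.05% rose and 3.0% fell, so nothing is read from this count. The myogenic factor genes were near 0 difference: myod1 at -0.02 ± 0.10, myog at 0.14 ± 0.13, myf5 at -0.11 ± 0.13 and myf6 at -0.04 ± 0.08 (limma adjusted p between 0.556 and 0.905). All of them read below the array medians. The gene myod1 averaged 3.61 in resected and 3.63 in control arrays, and myf5 3.12 and 3.23. Whether they were detected is unknown, so a difference near 0 need not mean unchanged expression. The activator myog, which rises in denervated rodent muscle, read 4.70, 5.11, 4.94 and 4.49 in resected arrays, against 4.74, 4.70, 4.46 and 4.78 in control arrays. Its groups overlapped, and its 95% interval ran from -0.15 to 0.44.

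The 3 increases were in the ETS factor genes etv5b and etv4, which in zebrafish are targets of fibroblast growth factor signalling, and in mef2ca, a muscle transcription factor. The gene etv5b read 6.65, 7.35, 6.96 and 7.31 in resected arrays, against 6.21, 5.97, 6.52 and 6.26 in control arrays (0.83 ± 0.17, limma adjusted p = 0.0153). The gene etv4 was at 0.67 ± 0.14 (adjusted p = 0.0213) and mef2ca at 0.44 ± 0.10 (adjusted p = 0.0285). The ETS factor genes etv5a (-0.23 ± 0.10) and gabpa (0.02 ± 0.09) did not pass. Nor did mef2aa (-0.05 ± 0.13) and mef2d (-0.02 ± 0.12), which are related to mef2ca. These related genes were named after their values were seen. Calls were lost for mef2ca without any array except control replicate 2 (0.0519 to 0.0823) and with a replicate block (0.0523), for etv4 without resected replicate 2 or 4 or control replicate 4 (0.0506 to 0.0595), and for etv5b without resected replicate 2 (0.0537). Without control replicate 2 the list had 5 increases, and without resected replicate 2 it had 0.

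Further genes of this list, of families linked to the loss of nerve input in rodent muscle, were chosen after their values were seen, and none passed the threshold. The runt factor runx1 was at -0.02 ± 0.11, the adhesion molecules ncam1a and ncam1b at -0.08 ± 0.12 each, the deacetylase hdac4 at -0.03 ± 0.09, and the ubiquitin ligases trim63a at -0.49 ± 0.18 and trim63b at 0.05 ± 0.19 (limma adjusted p between 0.137 and 0.923). The stress response gene gadd45aa was on the higher side, at 0.49 ± 0.15 (limma adjusted p = 0.0844), and gadd45ab was at 0.08 ± 0.12. The gene gadd45aa averaged 5.11 ± 0.16 in resected and 4.63 ± 0.32 in control arrays (SD, n = 4 each), and only control replicate 2 reached into the resected values. The dachshund family genes dacha, dachb and dachd were at -0.10 ± 0.21, -0.10 ± 0.16 and -0.50 ± 0.17, and the deacetylase family gene hdac9b was at -0.50 ± 0.15 (limma adjusted p = 0.0783). The inhibitor of myogenic factors id1 was at 0.53 ± 0.16 (limma adjusted p = 0.0687). Its family did not share one direction: id2a was at 0.32 ± 0.23, id2b at -0.28 ± 0.18, id3 at -0.24 ± 0.15 and id4 at -0.12 ± 0.11. The ubiquitin ligase fbxo32, a gene of muscle wasting, read 6.27, 5.82, 4.73 and 6.91 in resected arrays, against 6.87, 7.16, 7.40 and 7.47 in control arrays. Its resected values were spread and overlapped the lowest control value, and its difference was -1.29 ± 0.37 (limma adjusted p = 0.0646).

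Markers of other cells that could bring endplate genes into a sample were measured as whole lists. Skeletal muscle markers held the most increases of any list: of 71 listed, 32 were measured, 14 rose, 0 fell and 18 did not pass. The list median was 0.49. Among all genes 5.05% rose and 3.0% fell. The mean level of these markers is given next. Their mean level lay between 6.80 and 7.13 in resected and between 6.30 and 6.49 in control arrays. The parvalbumin gene pvalb2, a calcium buffer of fast fibres, read 8.26, 9.18, 8.71 and 9.08 in resected arrays, against 6.56, 6.48, 6.44 and 6.48 in control arrays. The remaining named increases were in the thin filament gene tnnc2.2 (1.85 ± 0.21), the myosin light chain genes mylz3 (1.80 ± 0.16) and mylpfa (1.69 ± 0.18), the parvalbumin pvalb1 (1.70 ± 0.17) and the troponin tnnt3b (1.64 ± 0.26). Not all markers were on the higher side: 2 of the 32 were lower at an unadjusted p under 0.05. These were pgam2, a glycolytic enzyme of muscle (-0.31 ± 0.10, limma adjusted p = 0.0824), whose resected values all lay below its control values, and the myosin-binding protein gene mybpc2b (-0.60 ± 0.22, limma adjusted p = 0.128). The muscle creatine kinase gene ckmb was at -0.36 ± 0.22 (limma adjusted p = 0.359). These 3 were named after their values were seen. In bulk tissue, more cells of a type and more RNA per cell cannot be told apart. The part of skeletal muscle RNA in the difference of musk was not tested.

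Array by array, musk was set beside the skeletal muscle markers. Replicates 2 and 4 were the highest resected arrays for musk, and for 9 of the 14 skeletal muscle markers that rose. Resected replicate 1 was the lowest resected array for 11 of the 14, whereas musk was lowest in resected replicate 3 (7.33, against 7.35 in replicate 1). Among controls, musk spanned 1.45 while pvalb2 spanned 0.13, and the 14 markers that rose spanned between 0.13 and 0.83. The correlation of musk with the mean of the 32 markers was 0.93 over 8 arrays and 0.39 after the group means were taken out. It was 0.95 over the 4 resected arrays and 0.30 over the 4 control arrays, all as descriptions.

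Nerve and glia markers were counted next, and nothing is read from the number of calls. The mean level of both lists lay below the median of every array, and whether each gene was detected is unknown. Beside 5.05% of all genes that rose and 3.0% that fell, the neuron and presynaptic list had 0 increases and 1 decrease. Of its 51 genes 22 were measured and 21 did not pass, with a median of -0.10 over the measured genes. Their mean level lay between 4.61 and 4.78 in resected and between 4.80 and 4.95 in control arrays. These means include the gene that fell, and without it the means of the 2 groups of arrays would overlap. The gene that fell was syt1a, a calcium sensor of vesicle release. It read 6.73, 6.43, 6.10 and 6.61 in resected arrays, against 8.33, 7.88, 8.29 and 8.24 in control arrays (-1.72 ± 0.15, limma adjusted p = 0.000102). The vesicle protein gene sypb was at -0.24 ± 0.08 (limma adjusted p = 0.106). Of 18 Schwann cell and glia genes 13 were measured, and 0 rose and 0 fell in limma, and an unadjusted p under 0.05 was reached by 1 gene, in the higher direction. The myelin gene mbpb was at 0.55 ± 0.21 (limma adjusted p = 0.144) and egr2a, a regulator of the same family as the Schwann cell factor egr2b, at -0.26 ± 0.12 (0.225). Without control replicate 2, mbpb was at 0.75 and passed (limma adjusted p = 0.0129).

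Heart muscle markers, 16 measured of 27, held 1 increase and 1 decrease, with a median of -0.10, where 5.05% of all genes rose and 3.0% fell. The ventricular myosin gene myh7 was at 10.77 ± 0.20 in resected and 9.94 ± 0.12 in control arrays (SD, n = 4 each; limma adjusted p = 0.00182). The cardiac factor nkx2.5 was at -0.36 ± 0.09, and its call (limma adjusted p = 0.0494) was lost whichever array was left out (0.0615 to 0.118). Smooth muscle markers, 5 measured of 11, held 2 increases: tagln, an actin-binding protein (1.88 ± 0.13), and mylka, the kinase that starts smooth muscle contraction (0.37 ± 0.09). The smooth muscle actin acta2 was at -0.07 ± 0.15, desmb at -0.14 ± 0.11 and smtnb at -0.08 ± 0.20. The call for mylka was lost without any one of the resected arrays and without control replicate 4 (limma adjusted p between 0.0549 and 0.101).

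**Figure D3:**
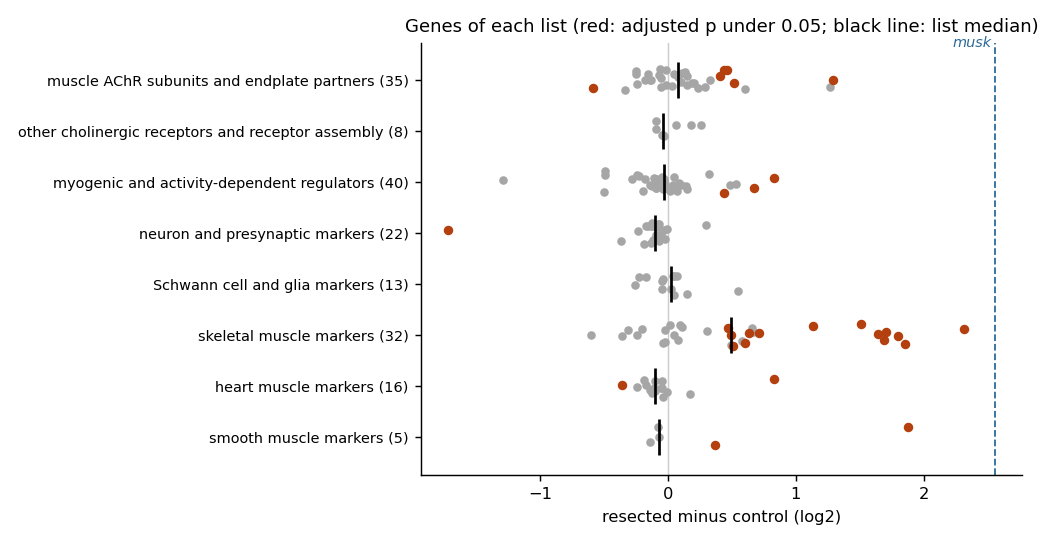
Difference between resected and control arrays (log2) for every measured gene of 8 lists; red points passed an adjusted p of 0.05, black lines are list medians and the dashed line is musk at 2.56. The skeletal muscle list has the highest median, 0.49, and none of the points reaches musk.

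The 8 genes whose pattern over the 8 arrays was most like that of musk were on none of the 8 lists above. Among 8740 genes compared, the highest Pearson correlations were those of myl6, a light chain of non-muscle and smooth muscle myosin (0.998), rrbp1a, a ribosome-binding protein of the endoplasmic reticulum (0.995), and c6.2, a complement component (0.992). Then came mxra8a, a matrix remodelling protein (0.991), the basement membrane collagen col15a1a (0.990), s100u, an S100 calcium-binding protein (0.989), coro1ca, an actin-binding coronin (0.988), and zgc:153867 (0.984). A correlation of 0.95 or more was reached by 77 genes. Among these were the list genes tagln (0.969), myh7 (0.958), mef2ca (0.954) and the skeletal muscle marker pvalb2 (0.951). By Spearman correlation 6 of the 8 genes most like musk were again among the highest. On the opposite side, the endplate partner erbb2 correlated with musk at -0.990 over 8 arrays, and at -0.954 with the group means taken out.

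The gene myl6, chosen for this closeness, read 9.22, 9.27, 9.22 and 9.34 in resected arrays, against 8.78, 8.86, 8.53 and 8.65 in control arrays. Control replicates 2 and 1 were the higher controls for both genes, and control replicate 3 was the lowest. With the group means taken out the correlation of myl6 with musk was 0.98, that of c6.2 was 0.94 and that of pvalb2 was 0.34. The 14 skeletal muscle markers that rose ran from -0.05 (actn3b) to 0.56 (tnni2a.3) in this measure. Among the skeletal muscle markers that did not pass, acta1a was at 0.80 and ckma at -0.84. The values for myl6 and c6.2 follow in part from their choice by the correlation over the same arrays and are no separate check. All are descriptions over 8 arrays, which share their normalization, and the change of myl6 itself was 0.56 ± 0.09 (limma adjusted p = 0.00496).

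**Figure D4:**
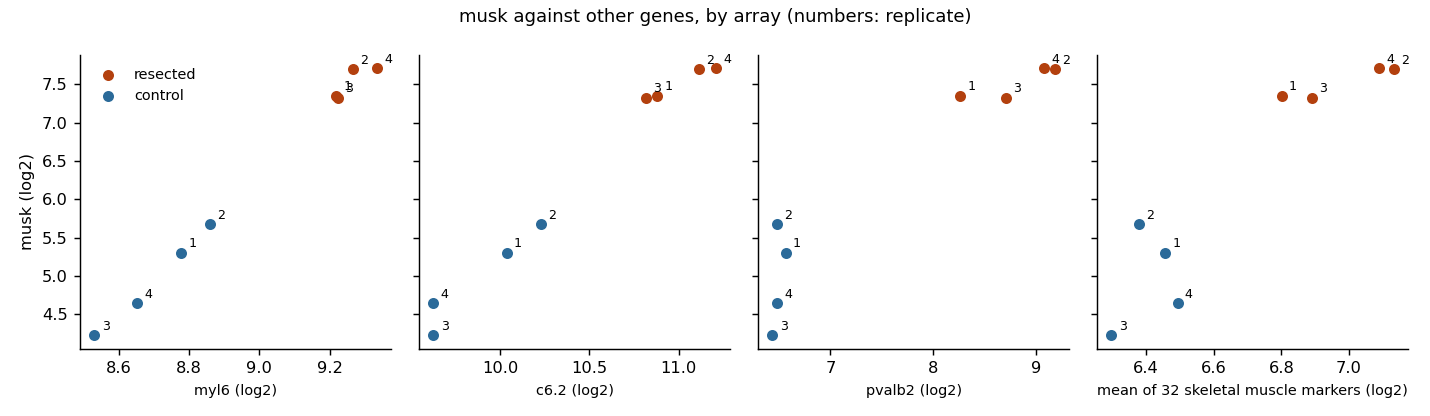
Expression of musk (log2, vertical axis) against myl6, c6.2, pvalb2 and the mean of 32 skeletal muscle markers (log2, horizontal axes) in each array, numbered by replicate. The 4 control arrays spread along musk together with c6.2 and with myl6, which runs from 8.53 to 8.86 among them. The gene pvalb2 spans 0.13 among them, the least of the 14 skeletal muscle markers that rose (0.13 to 0.83).

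The 3' minus 5' difference of control transcripts is used as a sign of RNA quality. It moved with the groups for actin and not for GAPDH. The manufacturer's actin control, named acta1, lay between -1.74 and -1.46 in resected and between -2.30 and -1.98 in control arrays. An exact two-sided permutation test gave p = 0.0286, the smallest that 4 against 4 arrays allow. All these values are negative, so the 5' probe set read above the 3' probe set in every array. The same quantity for GAPDH lay between 0.80 and 1.05 in resected and between 0.77 and 1.07 in control arrays (exact permutation test, p = 0.771). The skeletal muscle list holds an actin of that name, acta1a, so RNA quality and actin content cannot be told apart in the actin measure. The part of RNA quality in the differences above was not tested.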

How the data were processed

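The authors deposited log2 values for 8 arrays; affy and RMA are named, with no version, in the submitters' processing notes. Columns were matched to samples by accession, and 0 columns were left unused. The 115 manufacturer controls of 15617 probe sets were left out. Symbols came from the platform annotation, updated by Entrez identifier through a table of the GRCz12tu assembly (10711 of 10795 single-symbol probe sets matched, 1 symbol replaced); 135 probe sets had several symbols and 4572 none. Each of the 8793 genes was represented by its probe set with the highest mean. The test was two-sided in limma 3.58.1 under R 4.3.3 (lmFit and eBayes with no replicate term), with Benjamini-Hochberg adjustment over all probe sets, and the code was tested on simulated data. Nothing in the labels says whether pools share fish or a day of work, so p-values measure the spread between these pools. The members and lists were chosen with earlier results of these data known. From each list the text names up to 6 genes past the threshold with the largest change, the 2 with the smallest p where fewer than 2 passed, every gene of lists with 10 or fewer measured, and preset receptor, Wnt and myogenic genes. It also names the 8 genes most like musk over the arrays and the 8 most like it within groups (within-group SD of at least 0.2, no _x_at probe set). Array probes can bind close paralogs, so the parvalbumins, troponins, myosin chains and actins are uncertain as to the copy measured.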

Additional observations from a re-analysis of the deposited data

Results flagged for a closer look

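In 88 groups of 4 arrays, for the members and the named list genes, 5 had 1 array far from the other 3 by Dixon's criterion, which chance flags in about 1 group of 20. None was a group of musk, rapsn or chrna1. The receptor subunit chrne read 3.33 in control replicate 2, against 4.47 to 4.52 in the other control arrays. The nicotinic subunit chrnb3b read 5.92 in control replicate 4, against 5.48 to 5.54 in the others. The ETS factor gene etv4 read 8.32 in resected replicate 4, against at most 8.04 in the other resected arrays. In control replicate 4, mylka read 6.15, against 6.42 to 6.45, and pvalb1 read 6.42, against 6.04 to 6.08 in the other controls.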

How the results depend on the processing

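The differences of musk, rapsn and chrna1 kept their sign under every alternative run and moved by less than 1 SD. With the mean above the median probe set as a filter, rapsn and chrna1 gave no value. With each array left out, musk lay between 2.31 and 2.80, rapsn between -0.26 and -0.13 and chrna1 between 0.14 and 0.28. Same-numbered arrays deviated from their group means with correlations between -0.16 and 0.14, beside -0.22 to 0.30 for differently numbered arrays. These values cannot exclude a pairing by replicate number, which the labels do not state. With the replicate block musk stayed at 2.56, regulators had 2 increases (mef2ca was lost), Schwann cell and glia markers had 1 increase, heart muscle markers 0 decreases and smooth muscle markers 1 increase. Without variance moderation 299 probe sets passed (224 higher, 75 lower), with 2 increases and 0 decreases among endplate partners, 0 increases among regulators, 6 among skeletal and 1 among smooth muscle markers, and 0 decreases among heart muscle markers. An intensity trend, array weights or median centring also left 0 decreases there. The filter on dim probe sets left 8 increases among skeletal muscle markers, and averaging the probe sets of each gene gave 1 increase among neuron markers. With each array left out, 545 to 1608 probe sets passed (394 to 951 higher, 151 to 657 lower). Leaving out control replicate 2 gave the 1608, and resected replicate 2 the 545; the count was 604 without resected replicate 3 and 642 without control replicate 4. Endplate partners then had 2 to 6 increases and 1 to 3 decreases, regulators 0 to 5 and 0 to 2, glia markers 0 to 1 increases, skeletal muscle markers 10 to 14 increases and 0 to 1 decreases, heart muscle markers 0 decreases in each case and smooth muscle markers 1 to 2 increases. Where a count moved, the cause was not tested.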

Other observations

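Inside the groups, with the group means taken out, the 8 genes most like musk among 2353 genes with enough spread were fthl28, a ferritin heavy chain like gene (r = 0.97), fancg (0.97), rnf181 (0.95), ckba, a brain-type creatine kinase (0.95), c6.2 (0.94), cyb5b (0.94), cirbpb, a cold-inducible RNA-binding protein (0.93), and lxn, a latexin (0.93). Enough spread means a within-group SD of at least 0.2, which leaves out myl6 (SD 0.109, r = 0.98) and rrbp1a (SD 0.194, r = 0.95). Of the 8 genes c6.2 alone was past the threshold between resected and control ventricles (1.13 ± 0.15, limma adjusted p = 0.00189). The gene ckba read 8.87, 9.21, 8.88 and 9.29 in resected arrays, against 8.66, 8.64, 7.55 and 8.15 in control arrays (0.81 ± 0.23, limma adjusted p = 0.0601). The gene fthl28 read 3.71, 4.18, 4.00 and 4.23 in resected arrays, against 4.85, 5.62, 3.65 and 3.88 in control arrays. It was highest in the control replicates in which musk was highest, and it did not pass between the groups (limma adjusted p = 0.471).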
